A study of Homo sapiens with 9 samples.

Results

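Called HIF-1α sites of hypoxic neuroblastoma cells differed in number between megabases. Here 9 windows of 1 megabase with many called sites are described with the megabases beside them. On the hg19 build the windows were chr16:85-86 Mb, chr11:68-69 Mb, chr3:128-129 Mb, chr7:1-2 Mb, chr1:156-157 Mb, chr1:228-229 Mb, chr11:119-120 Mb, chr15:78-79 Mb and chr19:18-19 Mb. An interval of an authors' peak list was a member where its first listed summit fell in a window, and 370 of the 15076 intervals on chromosomes 1 to 22, X and Y did so. The windows had been chosen by their calls in these same lists, so the numbers of calls, their spacing and the share of sites called repeatedly are descriptions and were not tested.

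The series measured HIF-1α by chromatin immunoprecipitation with sequencing (ChIP-seq) on the human line SK-N-BE(2), neuroblastoma cells that carry MYCN amplification. For 48 hours the cells had 21% oxygen, termed normoxia, or 1% oxygen, termed hypoxia, and each condition has 3 libraries. The 3 input libraries, all labelled 21% oxygen, were not analysed here as files of their own. All groups are 1 cell line in culture, and since no label names separate cultures, any spread between libraries may be technical.

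HIF-1 is a transcription factor made of HIF-1α, whose amount follows oxygen, and ARNT, whose amount does not. In oxygenated cells HIF-1α is hydroxylated and degraded, and when oxygen is low it accumulates, pairs with ARNT and binds short DNA elements with the core ACGTG or GCGTG. Bound sites are known to lie mostly in open chromatin at promoters and enhancers. Positions of hg19 genes were not used here, so no interval was assigned to a gene. The genes named below are background on each megabase, and all 37 stand on the same chromosome in the RefSeq gene table of GRCh38.p14.

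The hypoxia core itself is frequent in promoters. ACGTG or GCGTG on either strand (also read as CACGT and CACGC, with overlapping matches counted) occurred in 48.4% of the 35116 RefSeq promoters of GRCh38.p14, each running from 250 bases before to 50 bases after a gene start. Of 10 listed genes known to lie in the windows, 8 had a promoter entry. Of these, 4 (CPT1A, GATA2, LMNA and WNT3A) held at least 1 core in any entry. This counts genes, and GATA2 and LMNA have 2 and 3 entries, whereas the 48.4% counts single entries. The GATA2 promoter at GRCh38.p14 chr3:128493152-128493451, minus strand, is 1 of 2 entries that hold 2 cores each. It is shown for the best-known gene of the chromosome 3 window. The IBA57 promoter (GRCh38.p14 chr1:228165554-228165853, plus strand) was chosen after its letters were seen. It holds 7 cores, and 0.447% of all promoters hold as many or more. Another IBA57 entry (GRCh38.p14 chr1:228174320-228174619, plus strand) holds 13 cores, most of them in a tandem repeat, and is not shown. Capitals mark the cores.
GATA2: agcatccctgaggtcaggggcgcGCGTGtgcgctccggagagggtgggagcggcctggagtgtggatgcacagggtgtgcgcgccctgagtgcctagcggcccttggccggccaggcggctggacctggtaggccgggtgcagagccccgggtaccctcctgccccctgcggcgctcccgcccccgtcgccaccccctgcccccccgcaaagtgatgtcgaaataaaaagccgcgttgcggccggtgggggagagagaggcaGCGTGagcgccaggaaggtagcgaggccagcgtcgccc
IBA57: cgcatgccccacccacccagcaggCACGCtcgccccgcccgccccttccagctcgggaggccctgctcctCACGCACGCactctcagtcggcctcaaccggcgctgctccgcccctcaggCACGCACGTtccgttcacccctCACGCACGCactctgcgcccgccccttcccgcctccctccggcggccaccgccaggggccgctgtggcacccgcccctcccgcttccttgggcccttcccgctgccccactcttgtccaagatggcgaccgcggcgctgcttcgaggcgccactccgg
These letters come from RefSeq and not from the libraries. The sequences of the called intervals were not used here.

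Hypoxia 1, 2 and 3 had 33, 135 and 193 intervals in the windows, a mean of 120 ± 81.0 (SD, n = 3). Normoxia 1, 2 and 3 had 4, 3 and 2, a mean of 3 ± 1 (SD, n = 3). Every hypoxia library lay far above every normoxia library. As a share of its own list the order was different: 2.34% (exact binomial 95% interval 1.62% to 3.28%), 2.31% (1.94% to 2.73%) and 2.53% (2.19% to 2.91%) in hypoxia 1, 2 and 3, against 5.33% (1.47% to 13.1%), 9.38% (1.98% to 25%) and 1.83% (0.223% to 6.47%) in normoxia 1, 2 and 3. The hypoxia shares lay close together although the lists differ several-fold in length, and all 9 normoxia members came from the chromosome 19 window. The normoxia members lay in only 2 regions, and each normoxia list called both. Normoxia 1 called 3 intervals in the first region, and normoxia 2 called 2 in the second. The binomial intervals count each called interval as separate, so they cover counting error only and not this splitting.

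Lists differed in resolution, and read totals per library were not used here. The smallest local background of a list, divided by its shortest interval, was 6.02 to 6.69 reads per kb for the normoxia lists. For the hypoxia lists it was 5.31 to 6.62. This measures depth only if the shortest interval is the length each read was extended to. In the normoxia lists and hypoxia 1 the shortest interval was 46 to 48 bp long. The shortest of hypoxia 2 was 155 bp and that of hypoxia 3 was 167 bp. In the windows a median of 8, 16 and 15 reads stood at the summits of hypoxia 1, 2 and 3. Interval widths and folds were therefore compared between places within a list only. Fold, as the authors' peak caller gave it, is reads at the summit over the local background with 1 added to both. Where the background is small it is thus well below the plain ratio.

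Where intervals of the 6 lists overlapped by 1 bp or more they were joined into a region, and regions with calls from 2 or 3 hypoxia lists are termed replicated. The windows held 215 regions, of which 113 were replicated (52.6%, exact binomial 95% interval 45.7% to 59.4%). The background over all 9395 regions with a hypoxia call was 44.0%. The 18 neighbouring megabases held 132 hypoxia regions, 53 of them replicated (40.2%, 31.7% to 49%). Regions called in all 3 hypoxia lists numbered 22 in the windows, or 10.2%, beside 11.5% of all hypoxia regions. Hypoxia 1 took no part in 91 of the 113 replicated window regions. Without hypoxia 2 or without hypoxia 3, both lists that remain shared 22 window regions, and the gap between windows and neighbours narrowed from 12.4 to 0.51 and 0.962 percentage points. It was 2.12 points when regions were joined only at a reciprocal overlap of at least 50%.

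Among all megabases the 9 had many replicated regions, but the highest count lay outside them, at chr2:16-17 Mb with 29 replicated regions and 115 intervals. The cells carry MYCN amplification, and the part of copy number in that count was not tested. The median megabase had 1 replicated region, and the 95th percentile was 6. The windows held 17 on chromosome 19, 14 on chromosome 16, 13 each at chr3:128-129 Mb and chr11:68-69 Mb, 12 on chromosome 7, and 11 each in the other four. In all 16 megabases held 11 or more, 7 of them outside the windows, and 8 megabases held 10, just below the lowest window. By the number of intervals the windows stood out less: 63 megabases outside them had at least the 25 of the lowest window. The windows chr15:78-79 Mb, chr1:156-157 Mb and chr11:68-69 Mb ranked 63, 23 and 18 by intervals.

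**Figure D1:**
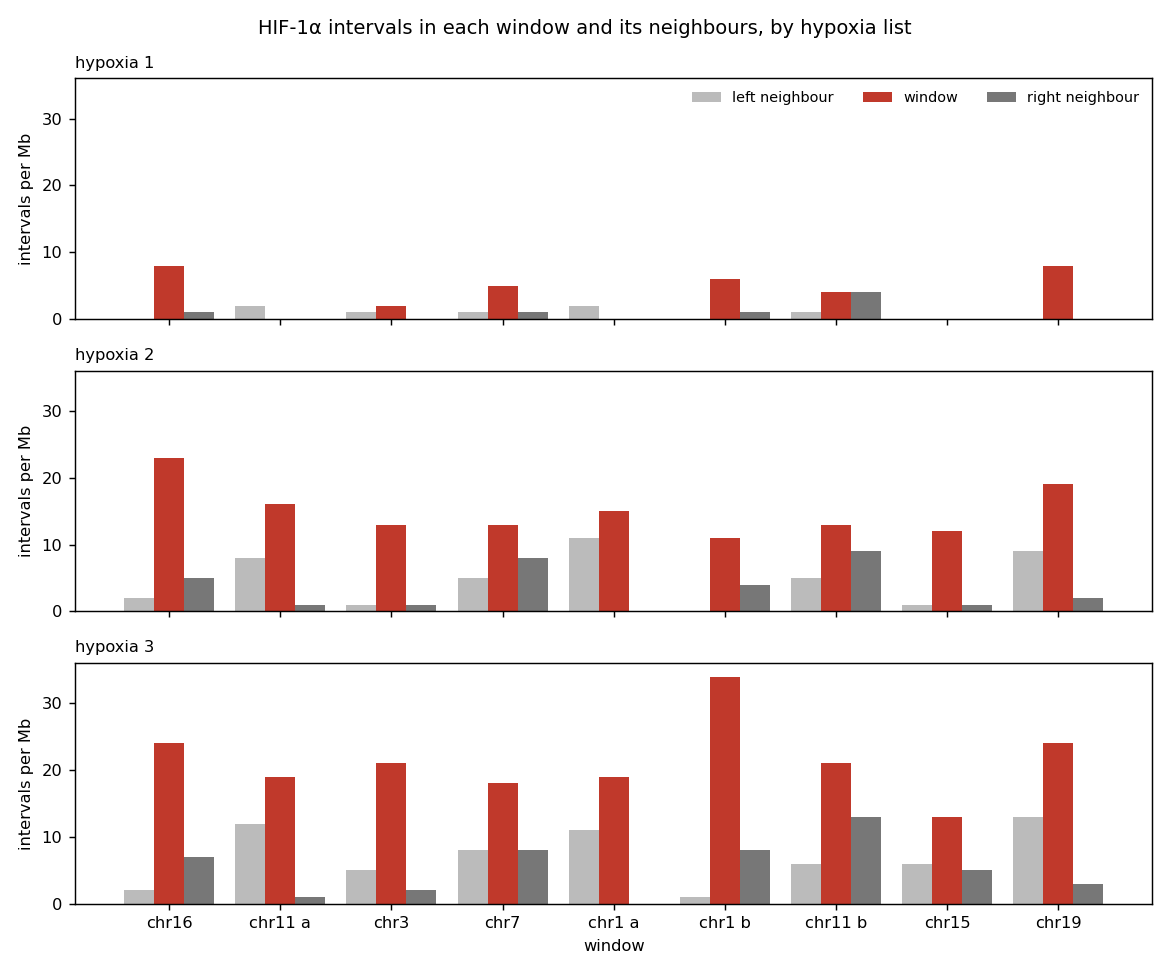
Intervals per megabase (y axis) in each of the 9 windows (red) and in the megabase to its left (light grey) and right (dark grey), with 1 panel for each hypoxia list; chr11 a and b are the windows at 68 and 119 Mb, and chr1 a and b those at 156 and 228 Mb. In hypoxia 2 and hypoxia 3 each window stands above both of its neighbours, and hypoxia 1 has no bar in the windows chr11 a, chr1 a and chr15.

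At chr16:85-86 Mb the calls gathered in one stretch. The megabase is known for GSE1, a component of histone deacetylase complexes, GINS2, a subunit of the replicative helicase, COX4I1, a subunit of cytochrome c oxidase, and IRF8, a transcription factor of blood cells. Hypoxia 1, 2 and 3 had 8, 23 and 24 intervals there, against 0, 2 and 2 in the left and 1, 5 and 7 in the right neighbour. The 31 regions all fell within 480097 bp, in 5 of the 10 bins of 100 kb, and no gap between adjacent regions was longer than 61537 bp. The remaining part of the megabase held no call in any list. Adjacent regions were a median of 12830 bp apart, against 34299 bp in the neighbours, and replicated regions 21178 bp against 53078 bp. The share of replicated regions was alike, 14 of 31 (45.2%) in the window and 5 of 11 (45.5%) beside it. Crowding here thus came with more regions and not with a larger replicated share.

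The strongest site of the chromosome 16 window was chr16:85514300-85514862, 563 bp wide. Its fold was 10.4, 38.4 and 32 in hypoxia 1, 2 and 3, with 14, 90 and 103 reads at the summit, and the summits of the 3 lists lay within 42 bp. At chr16:85428891-85429452 the fold was 8.26, 19.4 and 21.9, and at chr16:85320604-85321113 it was 7.83, 19.7 and 18. All were called in every hypoxia list and in no normoxia list. The widest region of all windows, chr16:85547989-85549231 with 1243 bp, was 1 interval in hypoxia 3 and in hypoxia 2 but 3 separate short ones in hypoxia 1, and the summits of its lists lay up to 554 bp apart. The summits of this region thus differed between lists.

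At chr19:18-19 Mb the hypoxia calls included the sites that were also called in normoxia. The megabase is known for PIK3R2, a regulatory subunit of phosphoinositide 3-kinase, PDE4C, a cAMP phosphodiesterase, JUND, a subunit of the transcription factor AP-1, GDF15, a secreted stress cytokine, and CRTC1, a coactivator of CREB. There were 8, 19 and 24 intervals in hypoxia 1, 2 and 3, against 0, 9 and 13 in the left and 0, 2 and 3 in the right neighbour. Of 26 regions 17 were replicated (65.4%, 44.3% to 82.8%) and 5 were called in all 3 hypoxia lists, against 8 and 0 of 19 in the neighbours. Adjacent regions were a median of 15131 bp apart, against 67646 bp in the neighbours.

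The first region with a normoxia call was chr19:18263189-18264031. In normoxia 1, 2 and 3 it had a fold of 7.39, 7.8 and 11.3. The hypoxia lists gave 13.6, 9.9 and 16.5 in the same order. Summit reads were 9, 9 and 14 in the normoxia lists and 24 in hypoxia 1, the hypoxia list of similar resolution. The whole stretch was 1 interval of 843 bp in normoxia 3, whereas normoxia 1 called 3 short intervals in it and hypoxia 1 called 2. The second, chr19:18334872-18335785, had folds of 5.75, 6.62 and 10.2 in normoxia. The hypoxia folds there were 21.4, 15.1 and 12.9. At its summit normoxia lists had 7, 11 and 16 reads, and hypoxia 1 had 29. At both regions the reads of hypoxia 1 were above those of every normoxia list, without correction for depth and with only 1 hypoxia library of that resolution. Of the 113 replicated window regions 2 had a normoxia call, both among the 215 hypoxia regions of the windows. The background was 2.25% of all replicated hypoxia regions and 1.2% of all hypoxia regions.

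Only 609 bp past the second region lay the strongest site of all 9 windows, chr19:18336395-18337259. It had a fold of 27.1, 56.6 and 82.2 in hypoxia 1, 2 and 3, with 35, 119 and 154 reads, and the summits agreed within 13 bp. No normoxia list called it, although its neighbour of lower fold was called in all 3. The third region of high fold, chr19:18118378-18118914, had 10.6, 20.8 and 26 in the hypoxia lists. Over all intervals of the window, these sites included, the median fold was 9.49, 7.29 and 7.73 in hypoxia 1, 2 and 3. The median fold percentile within the list was 80.8, 60.4 and 68.2 in the same order.

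The window at chr1:228-229 Mb was crowded in a different way, in part by a run of weak regions, most of them called in hypoxia 3 alone. The megabase is known for the signalling protein WNT3A, the guanylate kinase GUK1, the iron-sulfur protein IBA57, the ubiquitin ligase RNF187, the GTPase RHOU and the tandem array of 5S ribosomal RNA genes. Hypoxia 1, 2 and 3 had 6, 11 and 34 intervals, against 0, 0 and 1 in the left and 1, 4 and 8 in the right neighbour. Of 35 regions, 11 were replicated (31.4%, 16.9% to 49.3%), a share below the background of 44.0%, and 23 were called in hypoxia 3 alone.

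A run of 22 regions, each less than 3 kb from the next, lay at chr1:228744459-228775903 and was singled out after its values were seen. All 22 were called in hypoxia 3, 4 also in hypoxia 2 and 1 in hypoxia 1. Their fold in hypoxia 3 was low, from 3.23 to 6.45 with a median of 4.15, at 13 to 33 reads. The local background there was 2.64 to 7.6 times the smallest of the list, with a median of 4.37, beside a median of 1.69 for all hypoxia 3 intervals in the windows. The steps between neighbouring summits ranged from 301 to 2621 bp with a median of 1360 bp, and 6 of 21 were between 2000 and 2500 bp. The 17 RNA5S genes, which encode 5S ribosomal RNA, are near neighbours of one another on chromosome 1 in the RefSeq list, after RNF187. Copies of such an array are nearly identical in sequence. Whether the run lies on that array was not tested.

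Without the run the window kept 13 regions, of which 7 were replicated (53.8%), and the median gap was 22949 bp in place of 1902.5 bp. Over all 9 windows the replicated share without the run was 56.5% (49.2% to 63.6%), 109 of 193. The remaining regions of the window included strong sites. At chr1:228327631-228328373 the fold was 8.89, 25 and 35.6 in hypoxia 1, 2 and 3, and at chr1:228916944-228917764 it was 12.5, 30.9 and 18. The region chr1:228353166-228353553, with folds of 8.89, 10.8 and 26.5, had a replicated neighbour only 111 bp away, the closest pair of replicated regions in any window.

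At chr3:128-129 Mb replicated regions gathered within a short stretch. This megabase is known for GATA2, a zinc finger transcription factor of sympathetic neurons and blood cells, EEFSEC, an elongation factor for selenoproteins, RPN1, a subunit of the oligosaccharyltransferase, and RAB7A, a GTPase of late endosomes. Hypoxia 1, 2 and 3 had 2, 13 and 21 intervals, against 1, 1 and 5 in the left and 0, 1 and 2 in the right neighbour. The densest 100 kb, from chr3:128123564-128216667, held 11 of the 21 regions and 9 of the 13 replicated ones. Within it 4 replicated regions stood inside 3715 bp, at chr3:128128064-128131778. The strongest of them, chr3:128130343-128131027, had a fold of 4.47, 23.1 and 17.3 in hypoxia 1, 2 and 3. In hypoxia 1 it rested on 11 reads over a local background 5.3 times the smallest of the list. A second region called in all 3 lists, chr3:128399356-128400051, had folds of 4.43, 10.6 and 12.4. The last replicated region of the window was chr3:128444863-128445043, and the rest of the megabase had calls of a single list only.

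At chr7:1-2 Mb the sites were spread widely, in 8 of 10 bins of 100 kb. Genes known there include UNCX, a homeobox factor, MICALL2, a cytoskeletal adaptor, MAFK, a small MAF transcription factor, and MAD1L1, a spindle checkpoint protein. Intervals numbered 5, 13 and 18 in hypoxia 1, 2 and 3, against 1, 5 and 8 in the left neighbour, which is the first megabase of the chromosome, and 1, 8 and 8 in the right. Of 19 regions, 12 were replicated (63.2%) and 4 were called in all 3 lists, against 10 and 2 of 19 in the neighbours. In this window spacing went the other way: adjacent regions were a median of 21906 bp apart, against 15995 bp in the neighbours. At chr7:1140286-1141163 the fold was 7.6, 22.8 and 23.7 in hypoxia 1, 2 and 3. At chr7:1895943-1896807 it was 4.34, 13.4 and 34.5, and at chr7:1952219-1952648 it was 5.43, 19.8 and 18.4.

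The window at chr11:119-120 Mb had the smallest excess of intervals, 2 times the mean of its neighbours, where the other windows had 2.32 to 7.29 times. It is known for CBL, a ubiquitin ligase of receptor signalling, and for 3 cell surface proteins, MCAM, THY1, which neurons carry, and NECTIN1. Hypoxia 1, 2 and 3 had 4, 13 and 21 intervals, against 1, 5 and 6 in the left and 4, 9 and 13 in the right neighbour, so hypoxia 1 was no denser in the window than to its right. Replicated regions were 11 of 24 (45.8%) in the window and 10 of 23 (43.5%) beside it. The median gap between adjacent regions was 16192 bp in the window and 14148 bp beside it, whereas between replicated regions it was 60025 and 168128 bp. The site of highest fold, chr11:119643167-119644294, was 1128 bp wide with folds of 8.5, 18.2 and 28.7. At chr11:119995760-119996183 the fold was 5.11, 11.1 and 12.2, and at chr11:119542421-119542741 it was 4.34, 7.29 and 4.31. The last is a weak site that was called in all 3 lists nonetheless.

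Hypoxia 1 had no call at all in the windows at chr11:68-69 Mb, chr1:156-157 Mb and chr15:78-79 Mb. In hypoxia 2 and hypoxia 3 these windows had 16 and 19, 15 and 19, and 12 and 13 intervals. The 35 regions that both lists called there had a median fold of 6.1 in hypoxia 2 and 6.81 in hypoxia 3, and a highest fold of 17.7 and 20.7. In the other 6 windows the 78 such regions had medians of 7.14 and 8, and the highest were 56.6 and 82.2. A fold of 15 or more stood at 1 and 2 of the 35 regions in hypoxia 2 and hypoxia 3, against 14 and 17 of the 78. These values are a description: regions called in all 3 lists were of high fold, so setting apart windows without a hypoxia 1 call partly fixes this difference.

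At chr11:68-69 Mb genes known from the megabase are LRP5, a Wnt co-receptor, GAL, a neuropeptide, CPT1A, which carries fatty acids into mitochondria, and TPCN2, an endolysosomal channel. The left neighbour had 2, 8 and 12 intervals in hypoxia 1, 2 and 3 and 3 in normoxia 3, and the right neighbour had 0, 1 and 1. The 22 window regions included 13 replicated ones (59.1%), against 7 of 16 (43.8%) hypoxia regions in the neighbours. The densest 100 kb, chr11:68130356-68209682, held 9 regions. The widest region was chr11:68180333-68181021, 689 bp, with folds of 11.5 and 13.8 in hypoxia 2 and hypoxia 3. Near its far end chr11:68954302-68954825 and chr11:68955271-68955758 stood 445 bp apart.

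At chr1:156-157 Mb no region had a call in all 3 lists. The megabase is known for LMNA, the A-type lamin gene, MEF2D, a transcription factor of neurons and muscle, and NES, the progenitor filament nestin. Its left neighbour had 2, 11 and 11 intervals in hypoxia 1, 2 and 3, while the right neighbour had none in any list. Of 23 regions, 11 were replicated (47.8%), against 6 of 16 (37.5%) beside it. Adjacent regions were closer in the window, with a median gap of 13396.5 bp against 30085 bp in the left neighbour. Between replicated regions the order was opposite, with 45376.5 bp against 28402 bp. The widest, chr1:156629866-156630394, was 529 bp with folds of 5.23 and 6.91 in hypoxia 2 and hypoxia 3.

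The window at chr15:78-79 Mb had the fewest intervals, 25, and the highest replicated share, 11 of 14 regions (78.6%, 49.2% to 95.3%). In its neighbours 2 of 11 regions were replicated (18.2%, 2.28% to 51.8%). As the windows were chosen by their calls in these lists, this contrast may follow in part from that choice. The genes known there include IDH3A, a subunit of the mitochondrial isocitrate dehydrogenase, CRABP1, which binds retinoic acid, IREB2, an iron-responsive RNA-binding protein, and CHRNA3, a nicotinic receptor subunit of autonomic ganglia. Hypoxia 3 had 6 intervals in the left and 5 in the right neighbour where hypoxia 2 had 1 in each. The window held 14 regions, against 6 in the left and 5 in the right neighbour. Adjacent regions were a median of 52776 bp apart in the window and 65084 bp beside it, counting only gaps within a megabase. The highest fold was 20.7, in hypoxia 3 at chr15:78012993-78013342, where hypoxia 2 had 4.7. The widest, chr15:78964004-78964591 with 588 bp, had 6.14 and 7.44 in hypoxia 2 and hypoxia 3, and chr15:78284072-78284439 stood 867 bp from the replicated region before it.

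**Figure D2:**
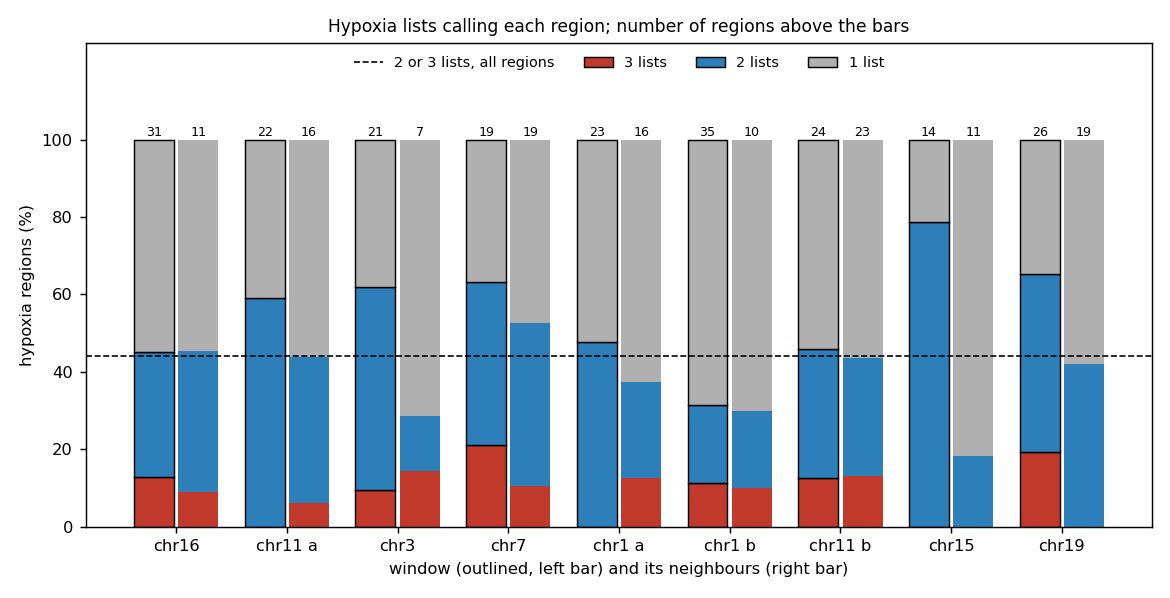
Share of hypoxia regions in percent (y axis) called in 1 (grey), 2 (blue) or 3 (red) hypoxia lists, for each window (outlined left bar) and its 2 neighbouring megabases together (right bar), with the number of regions above each bar. The dashed line is the 44.0% of all hypoxia regions called in at least 2 lists; the chr15 window reaches 78.6% and the chr1 b window 31.4%.

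In hypoxia 2 and hypoxia 3, the intervals of regions that more lists called were wider and of higher rank. A site far above the calling threshold is called in more lists, so this order is partly fixed in advance. The fold percentile of an interval within its list had a median of 28.4 in hypoxia 3 at window regions called once, 59.2 at those called in 2 lists and 92.7 at those called in all 3. The medians of interval width there were 214, 304 and 569.5 bp. The neighbours gave 35.8, 63.1 and 91.4 for the percentile and 214, 296 and 418 bp for the width. The same order thus held on both sides of the window edges, and it did so in hypoxia 2 as well. Hypoxia 1 had this order in the windows. In the neighbours its percentile went the other way, from 64.3 at 2 lists, with 1 interval, to a median of 49 at 3 lists. Summits of hypoxia 2 and hypoxia 3 in the same region were a median of 30 bp apart in the windows, 14.5 bp in the neighbours and 26 bp in all other megabases.

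With the 9 windows pooled, adjacent regions were closer than beside them. The order was opposite at chr7:1-2 Mb (21906 bp against 15995 bp) and chr11:119-120 Mb (16192 bp against 14148 bp). The median gap was 14674 bp in the windows and 36312 bp in the neighbours, and 49521.5 bp in all megabases outside the windows. Gaps under 1 kb numbered 33 of 206 in the windows and 10 of 115 in the neighbours. These pooled window gaps include those of the dense run on chromosome 1. Within single lists the median gap between intervals was 57137, 22637.5 and 15277 bp in the windows for hypoxia 1, 2 and 3, against 137430, 39011 and 38484 bp. The closer spacing was seen in each hypoxia list and follows from the choice of crowded windows. Between replicated regions the pooled median gap was 29902 bp against 53794 bp, a ratio of 0.556. The ratio was 0.264 without hypoxia 3 and 0.597 without the dense run. For replicated regions the order was opposite at chr7:1-2 Mb (55411 bp against 27436.5 bp) and chr1:156-157 Mb (45376.5 bp against 28402 bp). At chr11:119-120 Mb it was the pooled order (60025 bp against 168128 bp). The other windows with such gaps both inside and beside them also had the pooled order.

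Calls in the windows were not wider in every list. The median width was 92, 240 and 276 bp in the windows for hypoxia 1, 2 and 3, and 106.5, 241 and 252 bp in the neighbours. The difference was negative in hypoxia 1 and 2 (-14.5 and -1 bp) and positive in hypoxia 3 (24 bp), a mean of 2.83 ± 19.5 bp (SD, n = 3; two-sided exact sign-flip permutation p = 1, where the smallest possible p is 0.25). This is within the spread between lists. With only intervals of fold 6 or more the mean was 48.5 bp (exact permutation p = 0.25), and without hypoxia 3 it was -7.75 bp. Joined regions had median widths of 294 bp in the windows, 259 bp in the neighbours and 259 bp in all megabases outside the windows. Replicated ones had 395, 332 and 364 bp. A joined region spans intervals of lists that differ in resolution, so its width also depends on which lists called it.

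**Figure D3:**
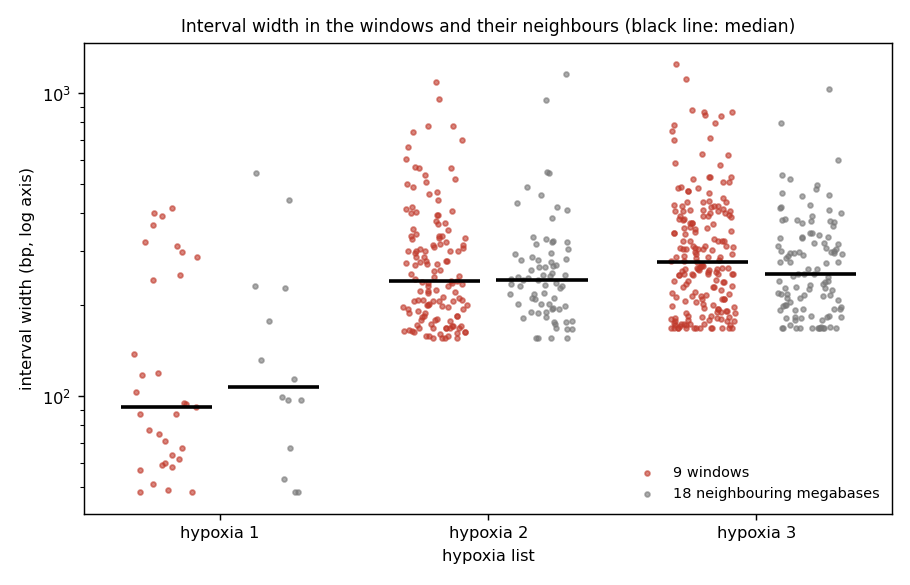
Width in bp (log y axis) of every interval in the 9 windows (red) and the 18 neighbouring megabases (grey) for each hypoxia list (x axis), with the median as a black line. The medians of hypoxia 2 nearly coincide (240 and 241 bp), that of hypoxia 3 is 24 bp higher in the windows, and that of hypoxia 1 is 14.5 bp lower.

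Calls in the windows did not rank higher either. The median fold percentile within a list was 39.5, 49.7 and 49.5 in the windows for hypoxia 1, 2 and 3, and 51.9, 49 and 53.4 in the neighbours. The mean difference was -5.21 ± 6.64 percentile points (SD, n = 3; two-sided exact sign-flip permutation p = 0.5), which is within the spread between lists. It turned to 6.25 with intervals of −log10 q of at least 5 and to 7.82 with a fold of at least 6. The direction thus depended on the threshold.

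The local background behind an interval, recovered from its fold and p and given relative to the smallest value of its list, had medians of 1.53, 1.65 and 1.69 in the windows for hypoxia 1, 2 and 3, and 2.34, 1.5 and 1.41 in the neighbours. The mean log2 ratio was -0.07 ± 0.48 (SD, n = 3; two-sided exact sign-flip permutation p = 1), and 0.20 without hypoxia 1. Window by window the order was different in hypoxia 1: in all 5 windows where it had calls in the window and beside it, its median was above that of the neighbours, which held 1 to 5 calls each, as it was in 6 of 9 windows in hypoxia 2 and in hypoxia 3. At chr1:228-229 Mb the median of hypoxia 3 was 3.93, and at chr1:156-157 Mb and chr11:119-120 Mb that of hypoxia 2 was 2.62 and 2.43. At chr19:18-19 Mb it was 1.15, 1.08 and 1.06 in hypoxia 1, 2 and 3, near the smallest of each list. The highest value was 7.6, in the dense run. The part of copy number or repeats in these levels was not tested.

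**Figure D4:**
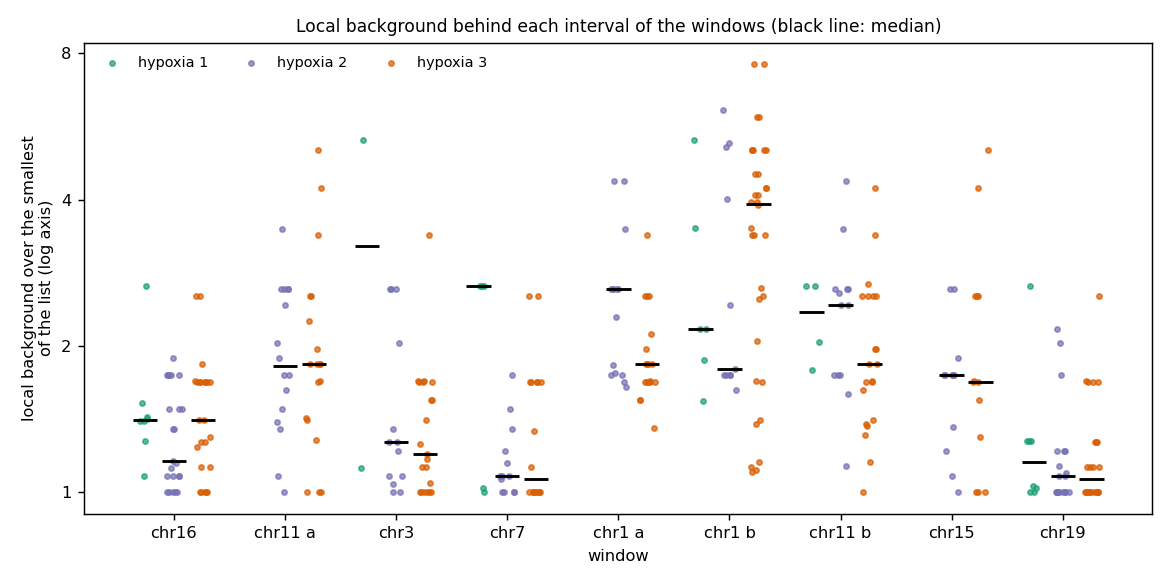
Local background of each interval in the windows, as a multiple of the smallest of its list (log y axis), by window (x axis) and hypoxia list (colour), with medians as black lines. The hypoxia 3 points of the chr1 b window reach 7.6 and have a median of 3.93, whereas the chr19 medians lie between 1.06 and 1.15.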

How the data were processed

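HIF-1α ChIP-seq peak lists of 3 hypoxia and 3 normoxia libraries were used, grouped by sample title. BWA 0.7.17, MACS2 and hg19 are named in the submitters' processing notes, and further settings were not given in the sources used here. Each sample has its own deposited list. Its fold column is a ratio of summit reads to local background, its −log10 p and −log10 q values were written by the peak caller the authors ran, and its deposited score is 10 times the −log10 q cut to a whole number.

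Distinct intervals were placed by the first summit listed; their values are those of the summit of smallest p. Positions are 1-based. Whole reads and local background were recovered from fold and p (tolerance 0.001 on −log10 p) at all 16463 summits, and the code was tested on simulated data. Regions join intervals sharing at least 1 bp. Shares carry exact binomial (Clopper-Pearson) 95% intervals. Windows were compared with the megabase on each side by two-sided exact sign-flip permutation over 3 libraries. Alternatives were stricter q (5) and fold (6), other joins, 2 megabases per side, and leaving out libraries or a dense run. Named regions were, per window, up to 3 of highest mean fold percentile called in all 3 hypoxia lists, those with a normoxia call, the widest and the closest pair; others were chosen for the description. The windows and lists were chosen with earlier results of these data known. Python 3.11.15 with pandas 2.3.3, numpy 2.4.6, scipy 1.17.1 and matplotlib 3.10.9 was used.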

Additional observations from a re-analysis of the deposited data

How the results depend on the processing

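Replicated window regions, 113 in all, were 62 with a fold of 6 or more required and 22 to 113 with 1 hypoxia library left out; stricter thresholds and fewer lists leave fewer regions by construction. Their share over that of the neighbours, 12.4 percentage points, was 2.12 with reciprocal overlap and 0.51 to 13.9 with 1 hypoxia library left out. Pooled over the windows, the ratio of median gaps between replicated regions, 0.556, was 0.404 at a fold of at least 6. This ratio was 0.436 with 2 megabases on each side, 0.673 with reciprocal overlap and 0.751 with summits within 150 bp. With 1 hypoxia library left out it was 0.264 to 0.563. At chr7:1-2 Mb and chr1:156-157 Mb the order of these gaps was opposite to the pooled one. The width difference, 2.83 bp, was 29.5 bp at −log10 q of at least 5 and 48.5 bp at a fold of at least 6. With 1 hypoxia library left out it was -7.75 to 11.5 bp, and the log2 ratio of local background was -0.24 to 0.20. The fold percentile difference turned from -5.21 to 6.25 at −log10 q of at least 5 and 7.82 at a fold of at least 6; the cause was not tested. The alternatives without the dense run on chromosome 1, and the member counts with 1 library left out (81 to 161 more in hypoxia than in normoxia, 117 with all), were added after the data were seen. As a replicate block, pairing same-numbered lists gave 117 by construction and no test, since the windows were chosen on these calls. A median of 8 to 16 reads at a summit limits any single interval. Changing the number of neighbouring megabases cannot change the count of window regions, so it was not run for that count.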
